A study of Drosophila melanogaster with 6 samples.

Results

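The endoplasmic reticulum (ER) chaperones of the fly head were followed through 9 genes of the 17807 in the count table. They are Hsc70-3, Gp93, Calr, Cnx99A, Pdi, ERp60 and CaBP1, which encode proteins that fold secretory proteins in the ER, together with Xbp1 and crc, which encode transcription factors of the unfolded protein response. The members were chosen by symbol, each symbol gave the same FlyBase gene in the deposited table and in the annotation, and all 9 passed the filter on low counts. The 6 RNA libraries were made from heads of male flies, 10 pooled heads a library, 3 libraries for pum kd and 3 for control. The pum kd flies carried UAS-pumRNAi (TRiP.HMS01564 at attP2), and the control flies carried UAS-mCherryRNAi (VALIUM20 at attP2), which targets a protein that flies do not have. For both genotypes the study writes the X chromosomes as w1118 over y1, sc*, v1 and sev21. Males have a single X, and which of these the flies carried is not stated. Both genotypes shared 1 copy each of tub-Gal80ts, of Su(H)GBE-Gal80, which blocks the driver in enteroblasts, of UAS-2xYFP and of the driver esg-Gal4. The driver is described by the study as active in intestinal stem cells and in the corpus allatum, the gland that makes juvenile hormone. Flies entered the sleep assay at 6 to 8 days of age, after rearing at 18 °C, and transgene expression was induced at 29 °C. Before freezing, the flies of each genotype were pooled in tubes for 30 minutes at 29 °C. Effects of handling therefore cannot be told apart from genotype, and p-values measure the spread between these pools of heads.

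Proteins that enter the secretory pathway fold in the ER with the help of an Hsp70 and an Hsp90 of that compartment, of lectins that hold glycoproteins, and of protein disulfide isomerases. When unfolded proteins accumulate there, the kinase and endonuclease Ire1 splices Xbp1 RNA, the kinase PEK slows translation and favours that of crc, and Atf6 is released from the membrane. The genes induced by this response include the ER chaperones themselves. The heat shock response serves mainly the cytosol instead. In this response the factor Hsf induces the genes of Hsp70, Hsp83 and small heat shock proteins.

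Gene counts summed to between 33258537 and 39377789 in the pum kd libraries and to between 33445243 and 34300972 in the control libraries. The 9 members had between 1317 and 29884 counts in a library, so differences between libraries rather than counting error set their precision. The normalized read count is given as CPM, a share of the library's total after TMM normalization. The RNA of pum itself did not separate the genotypes, at 176 to 228 CPM in pum kd heads and 168 to 346 CPM in control heads. The 8 markers of head tissue summed to 60207 to 75193 CPM in pum kd libraries and 65267 to 68950 CPM in control libraries, mostly from the opsin gene ninaE, and each of the 8 overlapped between the genotypes. The sum hides differences between the control libraries. In control replicates 1, 2 and 3, brp had 998, 449 and 790 CPM. For elav these were 207, 103 and 192 CPM, and for norpA 2280, 1200 and 1972 CPM. Of the controls, replicate 1 was instead the lowest for ninaE and trp. The odorant-binding protein gene Obp83a also varied between libraries, at 63.8, 18.8 and 0.5 CPM in pum kd replicates 1, 2 and 3, against 0, 0 and 1.06 CPM in control replicates 1, 2 and 3. Over the 10696 genes tested, 11 passed both an adjusted p under 0.05 and a log2 fold change of 1 in size by edgeR's quasi-likelihood test, which is 0.103% of them, and the median log2 fold change was -0.03. The ER chaperones are abundant in secretory cells, so the markers of such cells were summed. The 7 fat body markers gave 4187 to 4887 CPM in pum kd heads and 3928 to 4726 CPM in control heads, with Lsp2 and Fbp1 at or under 2.54 CPM. The 4 haemocyte markers gave 280.2 to 383 CPM in pum kd heads and 273 to 421 CPM in control heads. The 8 midgut markers gave 47.3 to 72.8 CPM in pum kd heads and 39.5 to 58.3 CPM in control heads, with betaTry, alphaTry, epsilonTry and Vha100-4 at 0 in every library. These sums overlapped between the genotypes. Among the single markers, Lsd-1 of the fat body did not overlap, at 177 to 297 CPM in pum kd heads and 71.7 to 143 CPM in control heads. The part of these cell types in the results was not tested.

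All 9 genes had a higher mean in pum kd heads, by 1.10-fold to 1.54-fold, and none passed the test across all genes. The largest differences were those of Gp93 and Hsc70-3, the Hsp90 and the Hsp70 of the ER, and the next was that of Xbp1. In these 3 genes the lowest pum kd value exceeded the highest control value, as in 5.36% of all genes tested, and the exact permutation test (two-sided) gave p = 0.10, the smallest that 3 libraries against 3 allow. No member lay wholly below the controls, as 4.95% of all genes did. A positive log2 fold change was found in 45.6% of all genes tested. The median log2 fold change of the 9 was 0.26. By edgeR's quasi-likelihood test, 0 of the 9 had an adjusted p under 0.05, as against 0.103% of all genes, and Gp93 and Hsc70-3 had an unadjusted p under 0.05, both higher in pum kd heads, where 3.28% of all genes were higher and 1.66% lower at that p. DESeq2 on the same counts gave an adjusted p under 0.05 for 1 of the 9, where it did so for 0.56% of all genes. The route of the authors, ComBat-seq followed by DESeq2, gave 2 of the 9, where it did so for 3.89% of all genes. The count was 0 of the 9 by edgeR without the filter on low counts (0.62% of all genes), with the authors' batches as a term (0.0935%), after ComBat-seq (0.338%) and with the gene length correction (0.273%). In whole heads, more cells that express a gene and more RNA per cell cannot be told apart.

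**Figure D1:**
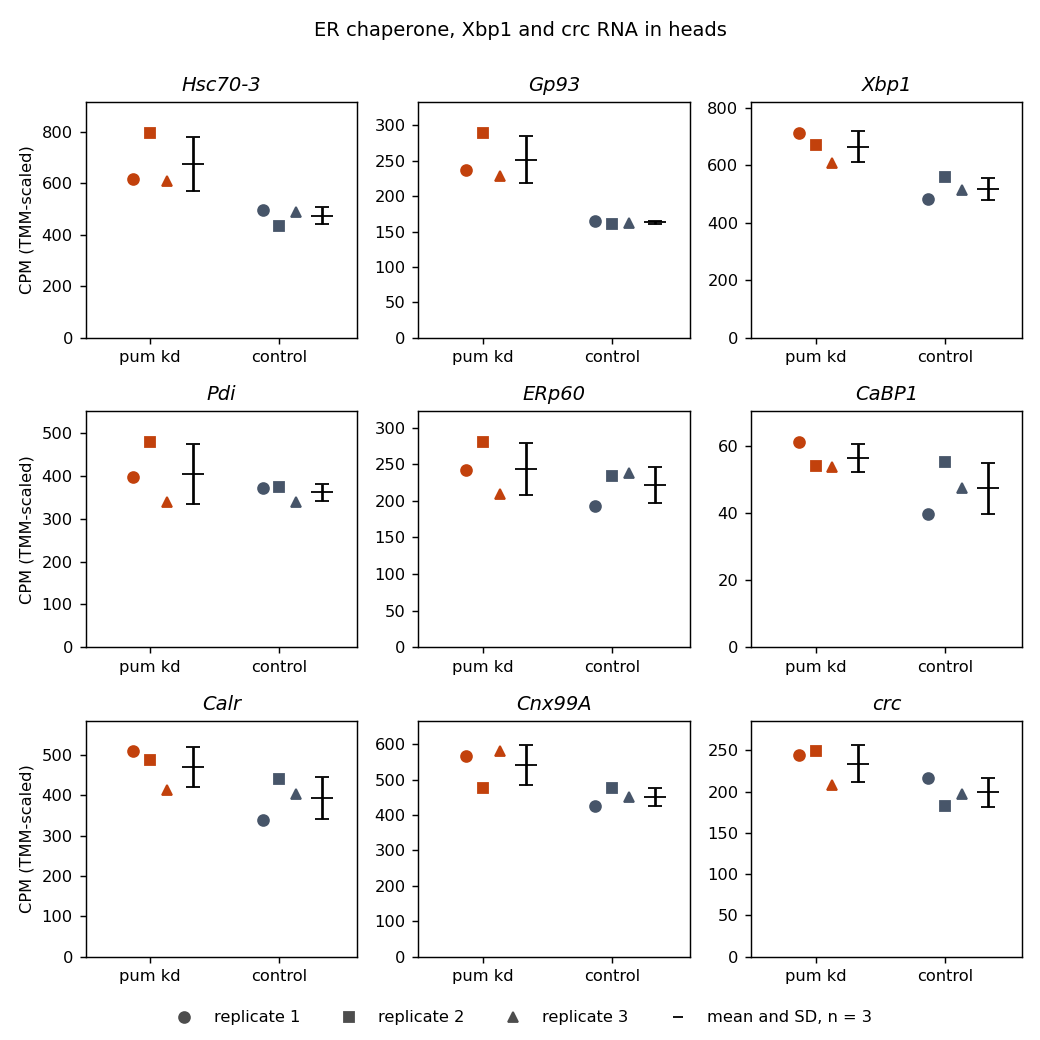
Normalized read counts (CPM, y axis from 0) of the 9 genes in the 3 pum kd and the 3 control libraries, with 1 point per library and the mean and SD of each genotype beside the points. Hsc70-3, Gp93 and Xbp1 show no overlap between the genotypes, whereas the points of the other 6 genes overlap.

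Gp93 (FBgn0039562, chromosome 3R of dm6 from 27948711 to 27952151, plus strand) encodes the Hsp90 of the ER. It had 236, 289.8 and 229 CPM in pum kd replicates 1, 2 and 3, against 165, 161 and 163 CPM in control replicates 1, 2 and 3. The control libraries lay within a few CPM of each other, and the lowest pum kd library was well above them. The means were 252 ± 33.3 CPM in pum kd heads and 163 ± 1.69 CPM in control heads (SD, n = 3 each), and edgeR's log2 fold change was 0.63 (standard error 0.17, 95% interval 0.25 to 1.00, edgeR adjusted p = 0.461). The adjusted p was 0.0232 with DESeq2 and 0.00110 with DESeq2 after ComBat-seq. Over all 16 alternatives it lay between 0.00110 and 0.9997, and the log2 fold change between 0.54 and 0.71. An exon of CG4951 overlaps Gp93 on the other strand, and the strand setting of the counting is not given in the sources used here. CG4951 had 294 to 534 counts in pum kd libraries and 408 to 651 counts in control libraries, at most 11.5% of those of Gp93 in the same library.

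Hsc70-3 (FBgn0001218, chromosome X from 11801696 to 11807117, minus strand) encodes the Hsp70 of the ER, known as BiP in mammals, which binds unfolded chains and holds the stress sensors inactive. It had 619, 798 and 610.2 CPM in pum kd replicates 1, 2 and 3, against 496, 435 and 490.0 CPM in control replicates 1, 2 and 3. Pum kd replicate 2 stood above the other pum kd libraries, and all 3 exceeded the highest control. The means were 675 ± 106 CPM in pum kd heads and 474 ± 33.5 CPM in control heads (SD, n = 3 each), and edgeR's log2 fold change was 0.51 (standard error 0.18, 95% interval 0.12 to 0.91, edgeR adjusted p = 0.744). Its adjusted p was 0.160 with DESeq2 and 0.0487 with DESeq2 after ComBat-seq, and over all 16 alternatives the log2 fold change lay between 0.41 and 0.61.

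Xbp1 (FBgn0021872, chromosome 2R from 21143545 to 21145750, plus strand) encodes the factor whose RNA is spliced by Ire1, and gene counts do not separate its spliced form from the unspliced one. It had 714, 672 and 607 CPM in pum kd replicates 1, 2 and 3, against 481, 558 and 513 CPM in control replicates 1, 2 and 3. The groups did not overlap, and the gap between the lowest pum kd and the highest control library was smaller than the range from lowest to highest within either genotype. The means were 664 ± 54.0 CPM in pum kd heads and 517 ± 38.6 CPM in control heads (SD, n = 3 each), and edgeR's log2 fold change was 0.36 (standard error 0.17, 95% interval -0.01 to 0.73, edgeR adjusted p = 0.993). The second factor, crc (FBgn0000370, chromosome 2L from 21310866 to 21319527, plus strand), is the fly ATF4, which is controlled mainly through its translation. It had 245, 249 and 208 CPM in pum kd replicates 1, 2 and 3, against 217, 183 and 197 CPM in control replicates 1, 2 and 3. The groups overlapped, since pum kd replicate 3 lay below control replicate 1, with a log2 fold change of 0.23 (standard error 0.17, edgeR adjusted p = 0.993). CG46314 shares exon bases with crc on the same strand and had 0 counts in every library, which does not show where reads from the shared bases were counted.

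The lectin chaperones Calr and Cnx99A bind the sugar chains of new glycoproteins, Calr in the ER lumen and Cnx99A at its membrane. Calr, the calreticulin gene (FBgn0005585, chromosome 3R from 9628691 to 9630851, minus strand), had 509, 488 and 414 CPM in pum kd replicates 1, 2 and 3, against 339, 441 and 402 CPM in control replicates 1, 2 and 3. Pum kd replicate 3 fell inside the range of the controls, with a log2 fold change of 0.26 (standard error 0.18, edgeR adjusted p = 0.993), which was 0.16 without control replicate 1. Cnx99A, a calnexin gene (FBgn0015622, chromosome 3R from 29315254 to 29319644, minus strand), had 567, 476 and 579.8 CPM in pum kd replicates 1, 2 and 3, against 426, 477 and 451 CPM in control replicates 1, 2 and 3. Pum kd replicate 2 was level with the highest control, and the other pum kd libraries exceeded it. The log2 fold change was 0.26 (standard error 0.17, edgeR adjusted p = 0.993). The paralogue Cnx14D was close to the limit of detection, at 1.74 ± 1.21 CPM in pum kd heads and 1.62 ± 0.977 CPM in control heads (SD, n = 3 each), and was named after its values were seen.

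Pdi, ERp60 and CaBP1 encode protein disulfide isomerases, which form and rearrange disulfide bonds in the ER. These 3 genes included the smallest differences of the 9. Pdi (FBgn0286818, chromosome 3L from 15137738 to 15142840, minus strand) had 397, 479.8 and 339 CPM in pum kd replicates 1, 2 and 3, against 373, 374 and 338 CPM in control replicates 1, 2 and 3. ERp60 (FBgn0033663, chromosome 2R from 11887568 to 11890979, minus strand) had 242, 280.5 and 209.7 CPM in pum kd replicates 1, 2 and 3, against 193, 234 and 238 CPM in control replicates 1, 2 and 3. Both were highest in pum kd replicate 2, and in both pum kd replicate 3 lay within the range of the controls. Their log2 fold changes were 0.16 and 0.14 (standard error 0.18 for each, edgeR adjusted p = 0.993 for each), and without pum kd replicate 2 each was 0.06. Without pum kd replicate 3 they were 0.28 for Pdi and 0.24 for ERp60, and without control replicate 1 the value for ERp60 was 0.05. CaBP1 (FBgn0025678, chromosome 2L from 16354886 to 16356735, minus strand) had 61.1, 54.0 and 53.7 CPM in pum kd replicates 1, 2 and 3, against 39.8, 55.0 and 47.3 CPM in control replicates 1, 2 and 3. Control replicate 2 lay above 2 of the pum kd libraries, with a log2 fold change of 0.25 (standard error 0.17, edgeR adjusted p = 0.993), which was 0.14 without control replicate 1 and 0.40 without control replicate 2. Overlapping genes on the other strand of Pdi and ERp60, asRNA:CR45396 and cuff, had at most 0.832% and 0.266% of the counts of the gene they overlap.

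**Figure D2:**
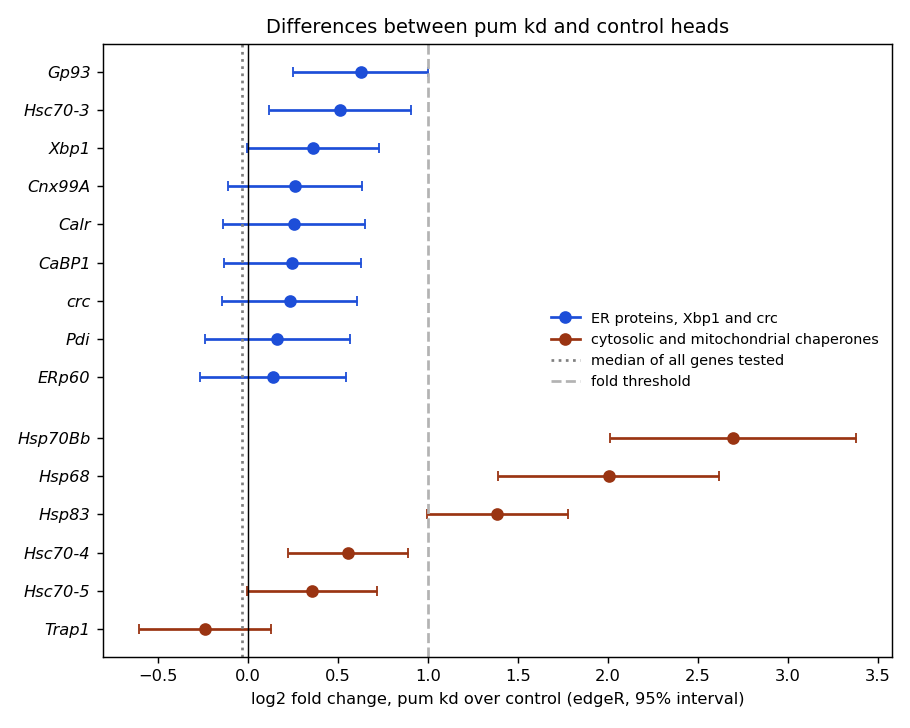
Log2 fold change of pum kd over control (x axis, edgeR) with its 95% interval for the 9 genes, from Gp93 at 0.63 to ERp60 at 0.14, and for 6 chaperones of other compartments. The interval excludes 0 for Gp93 and Hsc70-3 among the 9, and Hsp70Bb, Hsp68 and Hsp83 lie beyond the fold threshold of 1.

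Levels of the 9 genes were compared per kilobase of annotated exon, a scale that understates genes whose transcripts use only some of their exons. In pum kd heads Xbp1 came first, at 310.1 ± 25.2 CPM per kb, followed by Calr at 280.5 ± 29.6, Cnx99A at 194 ± 20.2, Hsc70-3 at 188 ± 29.5, Pdi at 174 ± 30.4, ERp60 at 135 ± 19.6, Gp93 at 88.5 ± 11.7, crc at 68.4 ± 6.49 and CaBP1 at 31.6 ± 2.36 CPM per kb (SD, n = 3). In control heads the order was Xbp1 at 242 ± 18.0, Calr at 235 ± 30.7, Cnx99A at 161 ± 9.13, Pdi at 155 ± 8.68, Hsc70-3 at 132 ± 9.33, ERp60 at 123 ± 13.9, crc at 58.1 ± 5.04, Gp93 at 57.3 ± 0.593 and CaBP1 at 26.6 ± 4.28 CPM per kb (SD, n = 3). The orders differ by the places of Hsc70-3 and Pdi and of Gp93 and crc. Between neighbours, the ranges of Xbp1 and Calr overlapped in both genotypes, as did those of Cnx99A and the gene after it. In pum kd heads the ranges of Hsc70-3 and Pdi and of Pdi and ERp60 also overlapped, while Gp93 lay above crc. In control heads Pdi lay above Hsc70-3, and the ranges of Hsc70-3 and ERp60 and of crc and Gp93 overlapped.

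The libraries fall into 2 batches, which the labels do not name and which were identified because ComBat-seq by them gave back 100% of the authors' normalized values within a relative 1e-06. One batch holds pum kd replicate 1 and control replicates 1 and 2, and the other holds pum kd replicates 2 and 3 and control replicate 3. Within the first batch pum kd replicate 1 lay above both controls in 9 of the 9 genes, as in 30.5% of all genes tested. Within the second, pum kd replicates 2 and 3 lay above the control in 8 of the 9, as in 29% of all genes tested, and the exception was ERp60. Pdi was among the 8 by a small margin, at 339.1 CPM in pum kd replicate 3 and 338.4 CPM in control replicate 3. The differences in log2 CPM within the batches were 0.54 and 0.66 for Gp93, 0.41 and 0.51 for Hsc70-3, and 0.46 and 0.32 for Xbp1. With the batches as a term in edgeR, the log2 fold changes of these 3 genes were 0.60, 0.47 and 0.39, and their adjusted p values were 0.850, 0.949 and 0.949. In the authors' normalized values, the groups did not overlap for Cnx99A either, so that 4 of the 9 lay above the controls, as in 9.57% of the genes of that table.

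The rest of the ER folding pathway was described with 6 lists. No gene of these lists passed the test at an adjusted p under 0.05 by edgeR, as against 0.103% of all genes, and 2 of the 60 genes tested in them, P58IPK and TRAM, had an unadjusted p under 0.05 with a higher value in pum kd heads. These are 3.33% of the 60, a share near the 3.28% of all genes. The pum kd libraries lay wholly above the controls in 4 of the 60, or 6.67%, as in 5.36% of all genes. They lay wholly below in 1 of the 60, or 1.67%, as in 4.95% of all genes. In the list of ER co-chaperones, which assist the Hsp70 of the ER, 7 of 8 genes were tested and each had a higher value in pum kd heads, with a median log2 fold change of 0.22. The gene left out, aqrs, had 0 counts in every library, and its place in this list is doubtful. P58IPK, which encodes a J-domain protein of the ER, had 54.6, 65.0 and 50.6 CPM in pum kd replicates 1, 2 and 3, against 37.1, 34.5 and 42.2 CPM in control replicates 1, 2 and 3. Its groups did not overlap, and its log2 fold change of 0.58 (standard error 0.17, unadjusted p = 0.00630, edgeR adjusted p = 0.567) was close to that of Hsc70-3. The J-domain gene shv had a log2 fold change of 0.46 (edgeR adjusted p = 0.993), with overlapping groups.

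Of the 9 thiol oxidoreductases matched, 7 were tested. In pum kd heads 4 were higher and 3 were lower, with a median log2 fold change of 0.03. Qsox2, a sulfhydryl oxidase gene, and prtp, which encodes a thioredoxin-like protein of the ER, had values of 0.40 and 0.08 (edgeR adjusted p = 0.993 and 0.995). Of the 14 genes of glycoprotein quality control tested, 10 were higher and 4 lower, with a median of 0.10. The mannosidase gene alpha-Man-Ia was at 83.5 ± 7.48 CPM in pum kd heads and 107 ± 28.2 CPM in control heads, and GCS2beta, of glucosidase II, was at 28.9 ± 1.14 CPM in pum kd heads and 25.1 ± 4.02 CPM in control heads (SD, n = 3 each). The 11 genes of ER-associated degradation, which returns misfolded proteins to the cytosol, split into 6 higher and 5 lower, with a median of 0.02. Herp, a membrane protein gene of that pathway, had 81.7 ± 5.04 CPM in pum kd heads and 66.8 ± 2.11 CPM in control heads (SD, n = 3 each). Its groups did not overlap, with a log2 fold change of 0.29 (standard error 0.15, edgeR adjusted p = 0.993). Der-1, a derlin gene, had a value of 0.25 with overlapping groups. Of the 10 genes of protein translocation into the ER, 7 were higher and 3 lower, with a median of 0.09. TRAM, which encodes a protein of the translocon, had 46.6 ± 6.79 CPM in pum kd heads and 34.5 ± 2.48 CPM in control heads (SD, n = 3 each), with groups that did not overlap and an unadjusted p of 0.0287 (edgeR adjusted p = 0.859). Sec61beta, a subunit of the channel, had a log2 fold change of 0.24.

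The 11 genes of the stress sensors and of the translational arm split into 6 higher and 5 lower in pum kd heads, with a median log2 fold change of 0.04 and values between -0.20 and 0.27. The values of the 3 sensors, named after they were seen, overlapped between the genotypes. Ire1 had 80.8 ± 3.53 CPM in pum kd heads and 81.3 ± 10.5 CPM in control heads, PEK had 103 ± 4.81 CPM in pum kd heads and 94.2 ± 19.4 CPM in control heads, and Atf6 had 70.4 ± 22.9 CPM in pum kd heads and 80.9 ± 25.2 CPM in control heads (SD, n = 3 each). The genes with the lowest p-values of the list were Nmdmc, a mitochondrial folate enzyme gene induced by ATF4, and eIF2alpha, the translation factor that PEK phosphorylates. Their log2 fold changes were 0.27 and 0.20 (edgeR adjusted p = 0.993 for each). PPP1R15, of the eIF2alpha phosphatase, was also named after its values were seen and lay below the controls, at 94.9 ± 3.46 CPM in pum kd heads and 107 ± 7.65 CPM in control heads (SD, n = 3 each, edgeR adjusted p = 0.993).

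**Figure D3:**
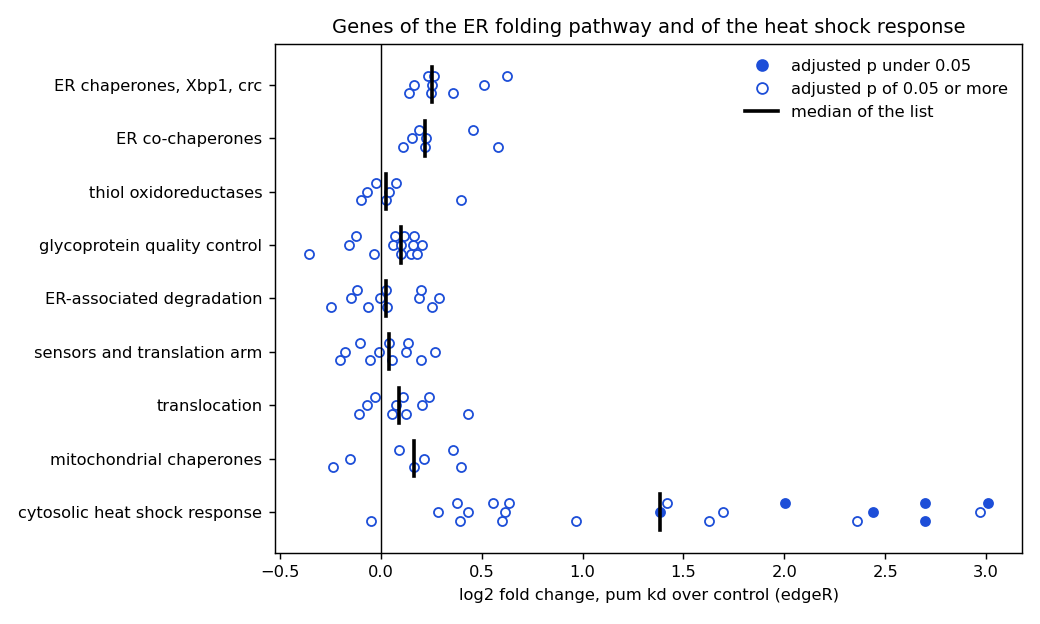
Log2 fold change of pum kd over control (x axis, edgeR) for each gene tested in the ER lists, the mitochondrial chaperones and the cytosolic heat shock response, with 1 point per gene, filled at an adjusted p under 0.05, and the list median as a bar. The medians of the ER lists lie between 0.02 and 0.26, and that of the cytosolic heat shock response at 1.39.

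The cytosolic heat shock response had a larger median difference than the members and the ER lists. Of its 21 genes tested, 20 had a higher value in pum kd heads and 6 were called, as against 0.103% of all genes. The median log2 fold change was 1.39, and the values ran from -0.05 to 3.01. They overlapped those of the 9 members, which ran from 0.14 to 0.63. The groups did not overlap for 18 of the 21, all above the controls, as in 5.36% of all genes. The called genes with the lowest p-values were Hsp70Bc, Hsp70Bb, Hsp70Ba, Hsp83 and Hsp68, and each Hsp70 copy is uncertain on its own, since the copies share sequence and reads may be split between them. Hsp83, the Hsp90 of the cytosol, had 4975, 3711 and 3772 CPM in pum kd replicates 1, 2 and 3, against 1676, 1596 and 1493 CPM in control replicates 1, 2 and 3. Its groups lay far apart, with a log2 fold change of 1.39 (standard error 0.18, edgeR adjusted p = 0.0159). Hsc70-4, the constitutive Hsp70 of the cytosol, had 5085, 4547 and 4458 CPM in pum kd replicates 1, 2 and 3, against 3132, 3299 and 3137 CPM in control replicates 1, 2 and 3. Its log2 fold change of 0.56 (standard error 0.15, edgeR adjusted p = 0.461) was near that of Hsc70-3 and far below the 2.00 of the inducible Hsp68.

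Each member was set against Hsp83 within the same library as a log2 ratio of CPM. The ratio was lower in pum kd heads for all 9, with differences between -1.24 for ERp60 and -0.76 for Gp93, and each passed limma's test across all genes (adjusted p between 0.00481 and 0.0276). In this comparison 82.5% of all genes gave a lower ratio at an adjusted p under 0.05, so the result is not particular to the ER genes. For 9 of the 9 the pum kd libraries lay below the control libraries, as for 82.7% of all genes, and the exact permutation test gave p = 0.10, the smallest that 3 libraries against 3 allow. The calls of 2 genes depended on single libraries. That of Gp93 was lost without any one of the controls or without pum kd replicate 1 or 3 (adjusted p between 0.0511 and 0.0903), and that of Hsc70-3 was lost without pum kd replicate 3 or control replicate 3 (adjusted p = 0.0538 and 0.0721). Against Hsc70-4 in place of Hsp83, 0 of the 9 ratios had a limma adjusted p under 0.05, as against 0.252% of all genes. The differences lay between -0.42 for ERp60 and 0.06 for Gp93. For 6 of the 9, Xbp1, Pdi, CaBP1, Calr, Cnx99A and crc, the pum kd libraries lay below the control libraries, as for 48.5% of all genes. The 95% interval was -0.88 to 0.04 for ERp60, -0.87 to 0.06 for Pdi, -0.55 to 0.44 for Hsc70-3 and -0.38 to 0.50 for Gp93.

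Paralogues of the same family in different compartments were compared in 5 pairs, with the exact permutation test (two-sided) and adjustment over the 5. The log2 ratio of Hsc70-3 to Hsc70-4 was -2.81 ± 0.269 in pum kd heads and -2.75 ± 0.147 in control heads (SD, n = 3 each, exact p = 0.90, adjusted p = 0.90). That of Hsc70-3 to the inducible Hsp68 was 2.41 ± 0.816 in pum kd heads and 3.81 ± 0.105 in control heads (SD, n = 3 each, exact p = 0.10, adjusted p = 0.167). Against Hsc70-5, the Hsp70 of mitochondria, the ratio was 0.52 ± 0.302 in pum kd heads and 0.37 ± 0.12 in control heads (SD, n = 3 each, exact p = 0.60, adjusted p = 0.75). Of the Hsp90 genes, the log2 ratio of Gp93 to Hsp83 was -4.04 ± 0.358 in pum kd heads and -3.28 ± 0.0771 in control heads, without overlap (SD, n = 3 each, exact p = 0.10, adjusted p = 0.167). The ratio of Gp93 to Trap1, the Hsp90 of mitochondria, was 1.67 ± 0.333 in pum kd heads and 0.81 ± 0.166 in control heads, also without overlap (SD, n = 3 each, exact p = 0.10, adjusted p = 0.167). Trap1 itself was at 79.1 ± 9.19 CPM in pum kd heads and 93.2 ± 9.69 CPM in control heads (SD, n = 3 each). In the mitochondrial list, 5 of 7 genes were higher and 2 lower in pum kd heads, with a median log2 fold change of 0.17. Hsc70-5 and CG11267, an Hsp10 gene, had values of 0.36 and 0.40 (edgeR adjusted p = 0.993 for each).

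The ER proteins and the cytosolic heat shock genes were not highest in the same library. Summed over the 7 ER proteins, the normalized counts were 2630.3, 2866 and 2435 CPM in pum kd replicates 1, 2 and 3, against 2030.5, 2177 and 2130.0 CPM in control replicates 1, 2 and 3. The sums over the 23 cytosolic heat shock genes matched were 13544, 10719.9 and 11089.9 CPM in pum kd replicates 1, 2 and 3, against 6536, 6699 and 6305 CPM in control replicates 1, 2 and 3. Most of these sums came from Hsp83 and Hsc70-4, and 2 of the 23 genes had 0 counts in every library. Hsp83 and Hsc70-4 averaged 4153 and 4697 CPM in pum kd heads, where the sum averaged 11785 CPM. In control heads they averaged 1589 and 3189 CPM, where the sum averaged 6513 CPM. Pum kd replicate 2 thus held the highest ER sum, at 136% of the control mean, and the lowest heat shock sum of the pum kd libraries, at 165% of the control mean. The same library stood apart in some RNAs of secreted antimicrobial peptides, which were named after their values were seen. The drosocin gene Dro had 1.32, 1431 and 26.3 CPM in pum kd replicates 1, 2 and 3, against 9.76, 10.5 and 1.97 CPM in control replicates 1, 2 and 3. The diptericin gene DptA had 0, 858 and 46.6 CPM in pum kd replicates 1, 2 and 3, against 3.90, 6.16 and 0.441 CPM in control replicates 1, 2 and 3. Both were far higher in pum kd replicate 2 than in any other library. Of other such genes, also named after their values were seen, DptB and Mtk were highest there too, at 739 and 372 CPM. CecA1, CecB and Drs were instead highest in pum kd replicate 3, at 90.4, 25.6 and 47.0 CPM. In pum kd replicate 2 these 3 had 66.2, 2.64 and 31.8 CPM. The part of these peptide genes in the ER values was not tested. Without pum kd replicate 2 the log2 fold changes were 0.54 for Gp93, 0.41 for Hsc70-3 and 0.38 for Xbp1. Among the pum kd libraries, replicate 2 was highest for 5 of the 9 members and for 0 of the 21 heat shock genes tested, where it was highest for 27.7% of all genes tested. Pum kd replicate 1 was highest for 19 of the 21 heat shock genes and for 3 of the 9 members, where it was highest for 35.7% of all genes tested.

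**Figure D4:**
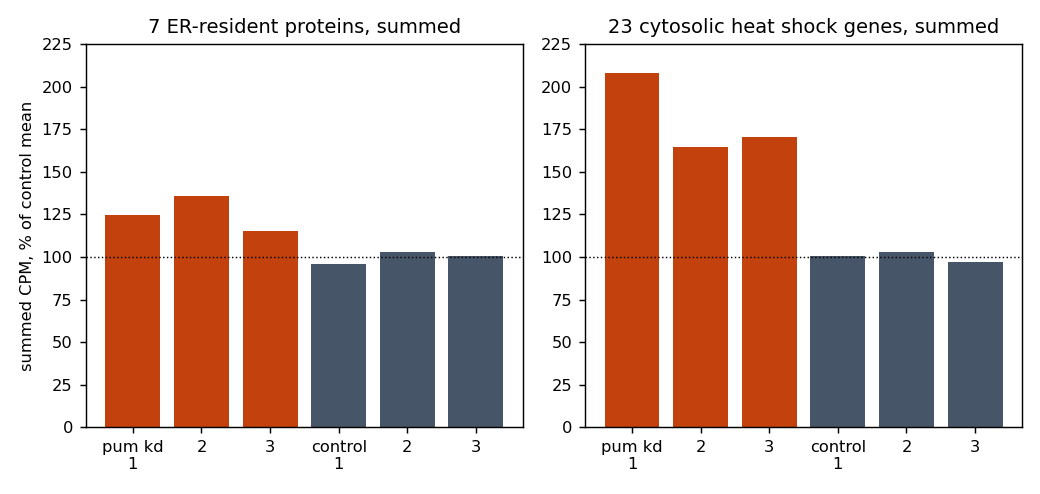
Summed CPM as a percent of the control mean (y axis from 0) for the 7 ER proteins and for the 23 cytosolic heat shock genes, with 1 bar per library, pum kd left and control right. The ER sum is highest in pum kd replicate 2, at 136%, and the heat shock sum in pum kd replicate 1, at 208%.

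The genes most like Hsc70-3 were taken as those with the highest Pearson correlation of log2 CPM over the 6 libraries, among the 7153 genes that averaged 10 CPM or more. The correlation contains the difference between the genotypes and is given as a description. The first 5 were Ntf-2, a nuclear transport factor gene (r = 0.986), CG7888 (r = 0.976), Gp93 (r = 0.973), Herp (r = 0.972) and P58IPK (r = 0.972). Gp93, Herp and P58IPK belong to the member list or to the ER lists. The other members came later in this order, crc at r = 0.858, Xbp1 at 0.746, Pdi at 0.701, ERp60 at 0.566, Calr at 0.562, Cnx99A at 0.396 and CaBP1 at 0.39. Ntf-2 had 89.7, 104.9 and 87.0 CPM in pum kd replicates 1, 2 and 3, against 74.2, 61.7 and 69.7 CPM in control replicates 1, 2 and 3, so that, like Hsc70-3, it was highest in pum kd replicate 2 and lowest in control replicate 2.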

How the data were processed

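The authors checked the reads with FastQC 0.12.1, trimmed them with Trimmomatic 0.39, and aligned them to dm6 and counted them per gene with STAR 2.7.11b. The annotation and strand setting are not given in the sources used here. They deposited raw counts per gene in one table and, in another, a normalized signal, made by correcting the counts with ComBat-seq and scaling them with the size factors of DESeq2, beside their own fold changes and p-values, which were not used. Rows that name no gene, 11.5% to 14.2% of counts, were left out.

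The main test was the quasi-likelihood test of edgeR 4.0.16 under R 4.3.3, after filterByExpr and TMM scaling, with p-values adjusted by Benjamini and Hochberg's method over 10696 genes and calls made at the study's thresholds. Ratios to Hsp83 used limma 3.58.1 on log2 CPM (prior count 2) and an exact permutation test. Alternatives changed the tool (DESeq2 1.42.0, ComBat-seq of sva 3.50.0), the size factors, the filter on low counts, the dispersion, the batch or replicate term and a gene length correction, or left out each library. The code was tested on simulated data. Ensembl's annotation in dm6 coordinates matched 17710 of 17807 genes. The listed names Hop, PDIA6 and TMX3 matched no gene as spelled. Libraries of a genotype differed far beyond sampling noise (chi-square per degree of freedom at least 45.8), so each was counted as 1 sample.

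The members and lists were chosen with earlier results of these data known. The genes named are the 9 members, in each list up to 5 genes at an adjusted p under 0.05 or otherwise the 2 with the lowest p, Hsp83, Hsc70-4, Hsp68, Hsc70-5 and Trap1, and the 5 genes most like Hsc70-3. Also named are pum, aqrs, genes that overlap members, and single cell type markers. Of these markers, Lsd-1, Obp83a, brp, elav, norpA and trp were picked by their values. Other genes are said to have been named after their values were seen. No sequences were used here.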

Additional observations from a re-analysis of the deposited data

How the results depend on the processing

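The log2 fold changes of the 9 members were recomputed under 16 alternatives each, and all 144 values stayed positive. The side of the threshold changed in 3 of them, 1 with DESeq2 on the deposited counts (Gp93, log2 fold change 0.64) and 2 with DESeq2 after ComBat-seq by the authors' batches (Gp93, 0.59, and Hsc70-3, 0.46). The count of members higher at an adjusted p under 0.05 was therefore 1 and 2 under these settings and 0 by edgeR, and 0 members were called with the fold threshold under every alternative run. ComBat-seq followed by edgeR was added after the data were seen and gave 0. Leaving out any single library left the counts of members called, higher and lower at 0. At an adjusted p under 0.05 alone, the numbers over all genes were 11 by edgeR, 74 with DESeq2 and 404 with DESeq2 after ComBat-seq. The numbers of calls over all genes, with the fold threshold, were 11 by edgeR, 55 with DESeq2, 73 with no filter on low counts, 220 with DESeq2 after ComBat-seq, 29 with edgeR after ComBat-seq, 21 with the gene length correction, 30 without control replicate 2, 8 without pum kd replicate 1, 7 without pum kd replicate 2 and 1 without control replicate 3. The cause of these differences was not tested.

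Replicate numbers are shared between the genotypes in the labels, but same-numbered libraries did not deviate together (correlations of -0.0869, -0.0211 and 0.014 for numbers 1, 2 and 3). Libraries of the same batch did not either. The correlations were -0.0869 and 0.0583 for pum kd replicate 1 with control replicates 1 and 2. They were -0.0491 and 0.014 for pum kd replicates 2 and 3 with control replicate 3. The check misses the shared batches, so it cannot decide whether the numbers mark pairs. With the replicate number as a block, 14 genes were called over all genes and 0 of the members, and the log2 fold changes of Gp93 and Hsc70-3 were 0.62 and 0.50.

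Of the 72 recomputed member ratios to Hsp83, 7 lost the call, each without 1 library, and 0 reversed. With Hsc70-4 in place of Hsp83, 0 of the 9 members passed, as against 0.252% of all genes. Of the 9, 8 kept a lower ratio, and the difference for Gp93 was 0.0624 in place of -0.76. Against Hsp83, leaving out single libraries gave between 7 and 9 members passing. With all 6 libraries 82.5% of all genes passed with a lower ratio, so these counts are not particular to the ER genes. The 5 paralogue ratios kept their direction with a prior count of 0.5, and their exact p could not pass the threshold under any setting. With 3 libraries a genotype the 95% interval of a member's log2 fold change was about as wide for Pdi (-0.24 to 0.57) as for Gp93 (0.25 to 1.00). These intervals are not adjusted over all genes. Neither the difference of Pdi nor the larger one of Gp93 passed edgeR's test across all genes (adjusted p = 0.993 and 0.461).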
